A study of Mus musculus with 112 samples.

Results

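The 82 transcripts described here are long noncoding RNAs, or lncRNAs, found in mouse embryonic stem cells, which carry a Gm symbol, the name given to a predicted gene model, and were not enriched on chromatin. Members had to be listed in both the total RNA and the polyA RNA table of the SNRNP70-AID cells. Their mean log2(FPKM + 0.1) on chromatin at 0 h could not exceed the average of their cytoplasm and nucleoplasm means. A set of 18 Gm symbols was left out by name, 11 of which were in both tables. The rule left 82 of the 602 Gm lncRNAs in both tables, out of 1279 lncRNAs in the total RNA table, and another 509 Gm lncRNAs lay above the threshold. FPKM is a count of sequenced fragments scaled to transcript length and to the fragments mapped, so levels of different genes can be compared within a fraction.

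All cells were 46C mouse embryonic stem cells of the 129/Ola strain or a line built from them. In the first set, 46C cells were taken 2 h after nucleofection with an antisense morpholino oligonucleotide (AMO): a scrambled control at 75 µM, one against U1 snRNA at 75 µM, one against U2 snRNA at 75 µM, or the U1 and U2 oligonucleotides together at 50 µM. In the second set, the U1 protein SNRNP70 carried an auxin-inducible degron (AID), and cells were taken at 0 h or after 4 h in 500 µM indole-3-acetic acid (IAA), the auxin that triggers degradation. Whether this line is a single clone is not given in the sources used here. A SLAM-seq experiment on it labelled new RNA in all groups with 4-thiouridine (4sU) for 3 h. The IAA group had 2 h of IAA before the label and kept it throughout. Whole cells, chromatin, cytoplasm and nucleoplasm were sequenced after ribosomal RNA removal in the AMO and AID total tables, and whole cells and chromatin after polyA selection. Each group had 3 libraries, apart from control AMO whole cells, where 2 could be assigned.

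U1 snRNP is the spliceosome particle that base-pairs with the 5' splice site, and U2 snRNP binds the branch point. U1 also holds back premature cleavage and polyadenylation inside genes, independently of splicing. Many lncRNAs are poorly spliced and stay on chromatin, whereas messenger RNAs, and those lncRNAs processed like them, are spliced, polyadenylated and exported to the cytoplasm. Few Gm gene models have an assigned function, so the members are described mainly by their place, their levels and the genes beside them.

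The 0 h values that chose the members ran from -3.96 to -0.00 on the log2 scale, with a median of -0.74. The lowest belonged to Gm43444 (-3.96), Gm43079 (-3.25), Gm37750 (-3.20), Gm26909 (-3.17), Gm11496 (-2.79) and Gm13580 (-2.40). Nearest inside the threshold were Gm43558 (-0.0009), Gm12569 (-0.0197), Gm27167 (-0.0211) and Gm44206 (-0.0245). Nearest outside were Gm21917 (0.0013), Gm37912 (0.0081), Gm16536 (0.0204) and Gm44986 (0.0207). The edge of the set therefore separated transcripts with almost equal values.

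The stem cell label was checked on lncRNAs. All 10 listed embryonic stem cell lncRNAs were measured, and they summed to 241 to 252 FPKM in whole cells at 0 h and to 165 to 182 FPKM after control AMO. After 4 h of IAA their sum was 215 to 226 FPKM, and after the other AMOs it was 122 to 150.5 FPKM. Of 12 lncRNAs of differentiated cells 6 were measured, with sums of 33.9 to 39.2 FPKM at 0 h, 41.3 to 44.9 FPKM at 4 h, 20.2 to 28.2 FPKM after control AMO and 14.5 to 18.6 FPKM after the other AMOs. The part of these shifts in the results below was not tested. SNRNP70 is a coding gene and the tables list lncRNAs, so its depletion was not analysed here. In bulk libraries, fewer cells expressing a transcript and less of it per cell cannot be told apart.

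RefSeq (GRCm38.p6) held 32 of the 82 members, or 39.0%, which is too few to compare gene structure with other lncRNAs. Of these, 27 were annotated as lncRNA, Gm11837, Gm4779 and Gm12569 as protein coding, and Gm17322 and Gm4961 as pseudogenes. Their median span was 6188 bp. A protein-coding gene overlapped 18 of the 32, on the opposite strand in 11, on the same strand in Gm14230 and with the strand not known in 6. Another 4 began or ended within 1000 bp of one. Among these were Gm15728, 99 bp from Rfc5, which encodes a subunit of the clamp loader of DNA replication, and Gm4779, 86 bp from 8030474K03Rik. The kit was directional, but the strand setting of the counting is not given in the sources used here, so reads of an overlapping pair may not be told apart.

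Promoter sequence is shown for a pair of members that were lower on chromatin after control AMO and after 4 h of IAA, to put their position and neighbours beside the values. Each run is 300 bases of RefSeq GRCm38.p6, from 250 bases before the annotated start to 50 after it, in the direction of transcription. Capitals mark a CCAAT box on the other strand. Gm11496, on the minus strand with its promoter at chr11:88999387-88999686, overlaps Trim25, an E3 ubiquitin ligase gene of innate immunity, on the opposite strand. Gm13580, on the plus strand with its promoter at chr2:60411275-60411574, lies 4969 bp from Pla2r1, which encodes a receptor for secreted phospholipase A2.
Gm11496: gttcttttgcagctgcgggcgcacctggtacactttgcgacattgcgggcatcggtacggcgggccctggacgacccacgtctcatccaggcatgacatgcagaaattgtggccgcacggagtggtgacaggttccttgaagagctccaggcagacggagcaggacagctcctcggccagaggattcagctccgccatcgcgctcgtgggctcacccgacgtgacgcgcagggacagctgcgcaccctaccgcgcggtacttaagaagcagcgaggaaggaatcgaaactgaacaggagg
Gm13580: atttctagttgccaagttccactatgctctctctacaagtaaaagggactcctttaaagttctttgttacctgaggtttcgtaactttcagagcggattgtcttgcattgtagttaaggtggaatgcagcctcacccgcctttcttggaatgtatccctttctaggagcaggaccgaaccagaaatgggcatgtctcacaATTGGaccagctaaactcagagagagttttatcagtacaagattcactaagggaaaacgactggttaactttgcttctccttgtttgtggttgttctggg
The Gm11496 window had 62.0% G and C and held none of the 4 motifs searched. The Gm13580 window had 43.3% G and C, and its CCAAT match lay at -50 from the start.

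The 4 motifs were searched on both strands as exact letters, and none contains another. Promoters were found for 27 members, 30 windows in all, with a median of 52.7% G and C, against 52.7% in all 32851 windows of the table. CCAAT was in 10 of the 30 (33.3%, against 37.4% of all) and GGGCGG, a GC box, in 13 (43.3% against 35.7%). TATAAA and GGTAAG, the letters of a TATA box and of a strong 5' splice site, were each in 1 of 30 (3.33%), against 13.6% and 9.67% of all windows. These are counts of letters in a window and were not tested. Only 27 of the 82 members had a promoter, and all windows together cover 27025 genes. No trait of the members is therefore read from these shares.

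The first question was whether the members were also off chromatin in libraries that had no part in choosing them. In control AMO cells 38 of 82 members were lower on chromatin than in the mean of cytoplasm and nucleoplasm, and none was higher. Among all 1269 lncRNAs tested, 127 (10.0%) were lower and 752 (59.3%) higher. The median difference was -0.61 on the log2 scale for the members and 1.11 for all. For 71 of the 82 the value was at or below 0, and the range was -4.09 to 0.69. Tests were made with limma on log2(FPKM + pseudocount), with p-values adjusted by the Benjamini-Hochberg method over all lncRNAs tested and a threshold of 0.05. A fold change is on that scale, which understates the change of low genes. The libraries of chromatin and of both soluble fractions did not overlap in 7 of the 82, against 47.0% of all tested. With every library centred on its own median, 76 members were lower and none higher, and all lncRNAs split into 400 lower and 368 higher. That centring moved the median of all lncRNAs in most chromatin comparisons by more than 0.1, to near 0.

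**Figure D1:**
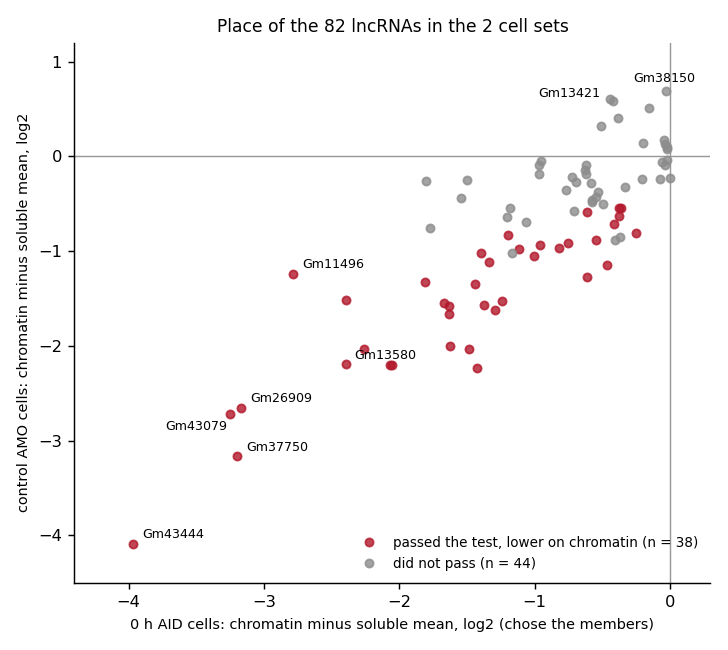
Place of the 82 members in both cell sets. The x axis is the log2 difference between chromatin and the mean of the soluble fractions in 0 h AID cells, which chose the members, and the y axis the same difference in control AMO cells. Each point is a member, red for the 38 that were lower on chromatin by the control AMO test and grey for the 44 that did not pass. Most points lie below 0 on the y axis, and Gm38150 lies highest, at 0.69.

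On the deposited scale, the low chromatin value of the members was mainly a difference from cytoplasm. In control AMO cells 81 of 82 were lower on chromatin than in cytoplasm, with a median of -1.76, whereas the median was 0.52 for all lncRNAs and 1.04 for the other Gm lncRNAs. Against nucleoplasm, 58 of 82 had the higher level on chromatin, with a median of 0.40 (1.67 for all lncRNAs). All 82 were lower in nucleoplasm than in cytoplasm, and 1207 of all 1279 lncRNAs were at or below 0, with medians of -2.45 and -1.21. By these medians the members were low on chromatin, relative to all lncRNAs, against both cytoplasm and nucleoplasm. In 0 h AID cells, whose libraries were scaled separately, the nucleoplasm minus cytoplasm median of the members was -0.94 (0.41 for all lncRNAs), and 14 members lay above 0. Median member levels in control AMO cells were 5.62 FPKM in cytoplasm, 1.07 on chromatin, 0.602 in nucleoplasm and 1.11 in whole cells. In 0 h AID cells they were 2.72, 1.03, 1.22 and 1.43 FPKM. Of the 82 members, 35 were under 1 FPKM in control AMO whole cells, and 29 reached 10 FPKM in cytoplasm.

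Gm7292 had the most precise soluble excess. In control AMO cells it read 7.95, 8.43 and 7.70 FPKM on chromatin. Cytoplasm held 109, 87.5 and 108 FPKM, and nucleoplasm 11.8, 9.40 and 12.0 FPKM. All chromatin libraries lay below all libraries of either soluble fraction, and the difference was -2.04 (SE 0.15, adjusted p = 4.53e-12). At 4 h of IAA it was -2.25 (SE 0.12, adjusted p = 6.68e-11).

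Gm43444 had the lowest value in both cell sets, and Gm43079 was among the lowest. Gm43444 read 1.16, 2.35 and 0 FPKM on chromatin against 21.4, 40.6 and 54.5 FPKM in cytoplasm and 8.95, 5.79 and 4.22 FPKM in nucleoplasm. The groups did not overlap, and the difference was -4.09 (SE 0.71, adjusted p = 8.87e-06). For Gm43079, chromatin held 2.06, 1.37 and 1.73 FPKM, cytoplasm 45.7, 25.1 and 50.9 FPKM and nucleoplasm 4.52, 2.97 and 4.14 FPKM. The difference was -2.72 (SE 0.39, adjusted p = 5.39e-07), and it was -3.80 (SE 0.46, adjusted p = 1.14e-06) after 4 h of IAA.

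Gm37750 was the most abundant of the strongly cytoplasmic members. It reached 1349, 928 and 825 FPKM in control AMO cytoplasm, against 99.9, 27.9 and 14.9 FPKM on chromatin and 103, 74.0 and 118 FPKM in nucleoplasm. Chromatin library 1 overlapped the nucleoplasm range, and the difference was -3.16 (SE 0.63, adjusted p = 5.98e-05). Gm26909 had 26.4, 14.8 and 15.2 FPKM in cytoplasm and 0.94, 1.04 and 0.93 FPKM on chromatin, a difference from the soluble mean of -2.65 (SE 0.46, adjusted p = 9.27e-06).

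Both members whose promoters are printed above were low in level and cytoplasmic. Gm11496 read 0.58, 0.39 and 0.65 FPKM on chromatin, 4.06, 3.25 and 3.87 FPKM in cytoplasm and 0.67, 0.36 and 0.70 FPKM in nucleoplasm. Chromatin and nucleoplasm overlapped, cytoplasm stood above both, and the difference from the soluble mean was -1.24 (SE 0.33, adjusted p = 0.00145). Gm13580 read 0.40, 0.20 and 0.54 FPKM on chromatin, 9.74, 6.94 and 9.66 FPKM in cytoplasm and 0.93, 0.27 and 0.57 FPKM in nucleoplasm, with the same order and a difference of -2.19 (SE 0.41, adjusted p = 2.59e-05). After 4 h of IAA the difference was -3.68 (SE 0.29, adjusted p = 6.20e-09) for Gm11496 and -3.09 (SE 0.22, adjusted p = 2.02e-09) for Gm13580.

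A few members went the other way in control AMO cells. The chromatin minus soluble value was 0.69 for Gm38150, 0.60 for Gm13421, 0.58 for Gm37179 and 0.51 for Gm11696, and none of these passed the test. Gm43558, the most abundant member in whole cells at 301 and 286 FPKM, read 308, 345 and 372 FPKM on chromatin. Its cytoplasm held 646, 814 and 914 FPKM and its nucleoplasm 263, 159 and 201 FPKM, so that chromatin lay between them.

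**Figure D2:**
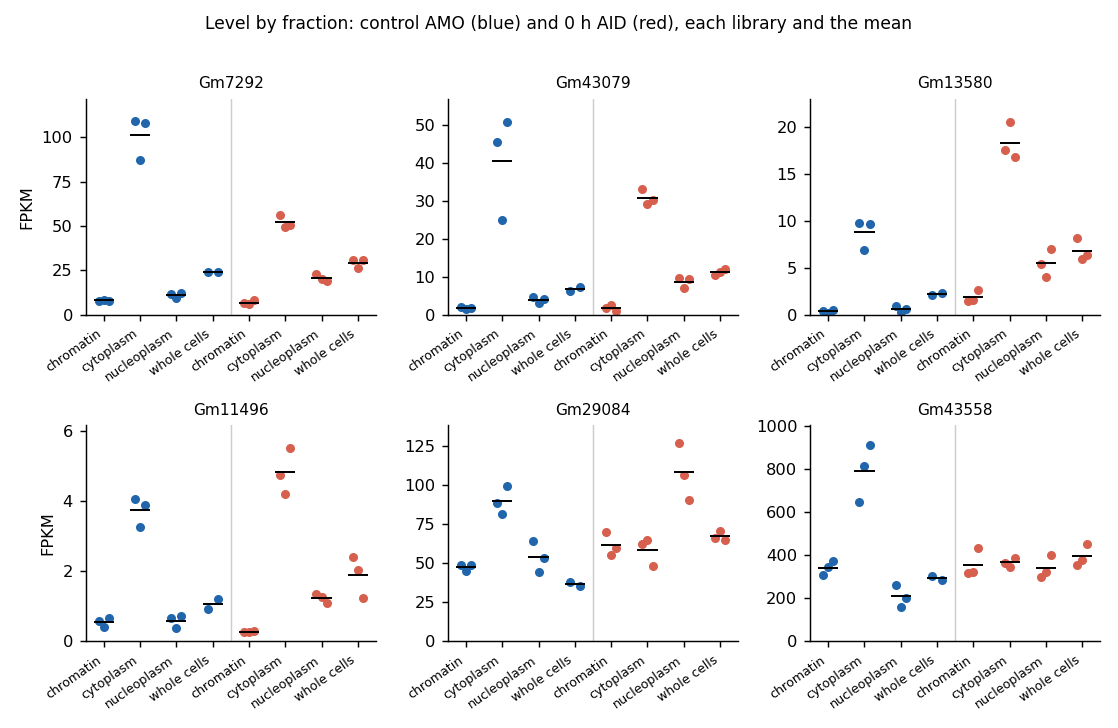
FPKM of 6 members in each library by fraction (chromatin, cytoplasm, nucleoplasm, whole cells), with control AMO in blue, 0 h AID in red and bars at the means. Cytoplasm is the highest fraction of Gm7292, Gm43079, Gm13580 and Gm11496 in control AMO cells, where chromatin of Gm43558 lies between its cytoplasm and its nucleoplasm.

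After 4 h of IAA the members stayed low on chromatin. The chromatin minus soluble value was at or below 0 in 80 of 82, with a median of -1.23, and 61 were lower by the test while none was higher. Among all 1273 lncRNAs tested, 239 (18.8%) were lower and 708 (55.6%) higher, with a median of 1.07. With centred libraries all 82 members were lower, and all lncRNAs split into 533 lower and 467 higher. For reference, 11 of the 13 listed nuclear-retained lncRNAs were tested and all 11 were higher on chromatin at 4 h (9 of 11 after control AMO). Of the 15 tested spliced lncRNAs and snoRNA hosts, 2 were higher and 8 lower at 4 h, and 4 and 5 after control AMO.

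PolyA-selected RNA gave a less uniform picture. Listing in that table was part of the rule, but its values were not. At 0 h, median member levels were 1.71 FPKM in whole cells and 1.42 FPKM on chromatin. Chromatin values were scaled to spike-in RNA and no such scaling is named for whole cells. The sign of a difference between them therefore depends on scaling, here and in the genes below. As deposited, 21 of 82 members were higher on chromatin than in whole cells and 17 lower, with a median of -0.15. Among all 1216 lncRNAs tested 795 (65.4%) were higher and 95 (7.81%) lower, with a median of 1.15. With centred libraries 1 member was higher and 56 lower, and all lncRNAs split into 356 higher and 295 lower.

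Several cytoplasmic members had low polyA RNA on chromatin. Gm7292 read 9.15, 9.08 and 11.1 FPKM on chromatin and 26.9, 26.3 and 27.4 FPKM in whole cells, a difference of -1.46 (SE 0.10, adjusted p = 3.84e-08). Gm13580 read 1.79, 0.40 and 0.78 FPKM on chromatin against 6.80, 5.78 and 7.42 FPKM (-2.84, SE 0.44, adjusted p = 7.80e-05). Gm11496 read 0.55, 0.26 and 0.19 FPKM against 2.48, 1.85 and 1.37 FPKM (-2.26, SE 0.33, adjusted p = 5.56e-05). For Gm43444 chromatin held 3.33, 1.81 and 2.27 FPKM and whole cells 4.16, 6.02 and 6.62 FPKM (-1.17, SE 0.35, adjusted p = 0.00897). No libraries overlapped in any of these 4. Other cytoplasmic members did not differ by the test: Gm37750 read 67.1, 99.4 and 118 FPKM of polyA RNA on chromatin and 67.4, 103 and 86.9 FPKM in whole cells (0.13, SE 0.32, adjusted p = 0.723).

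Gm38150 was the opposite case, with 19.2, 16.4 and 14.2 FPKM of polyA RNA on chromatin and 3.65, 4.10 and 6.02 FPKM in whole cells. The difference was 1.85 (SE 0.29, adjusted p = 9.34e-05) and remained past the threshold with centred libraries (0.88). Gm29084 read 98.4, 98.4 and 97.3 FPKM on chromatin and 61.4, 61.9 and 61.9 FPKM in whole cells, which was 0.67 (SE 0.05, adjusted p = 2.64e-07) as deposited and turned to -0.31 with centred libraries. The same reversal was seen for Gm43558 (0.69 and -0.29) and Gm44206 (0.38 and -0.60).

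U1 AMO lowered the chromatin level of many members, as it did for lncRNAs at large. Of 78 members tested 34 fell and 1 rose, with a median of -0.70. Of all 1234 lncRNAs tested 651 (52.8%) fell and 65 (5.27%) rose, with a median of -0.81, so the members' share was below the background, a difference that was not tested. With centred libraries 5 members fell and 8 rose, with a median of 0.14, and all lncRNAs split into 145 falls and 224 rises. The median fall of the members was thus smaller than that of all lncRNAs tested. In 6 of the members that fell, every U1 AMO value was under the pseudocount of 0.2, so they were tested through the control libraries alone. Without control AMO chromatin library 1 the member count was 22, against 35 with it. All AMO comparisons below share the control AMO libraries of their fraction.

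The falls of Gm27234, Gm12100 and Gm19705 passed the test without any single library, and that of Gm2762 in the 3 left-out sets that could be fitted. Gm27234 went from 3.95, 3.70 and 3.89 FPKM to 0.84, 0.66 and 1.34 FPKM, with no overlap (-1.86, SE 0.31, adjusted p = 0.000459, and -1.03 with centred libraries). Gm12100 went from 3.08, 1.75 and 1.79 FPKM to 0.57, 0.38 and 0.57 FPKM, again without overlap (-1.74, SE 0.25, adjusted p = 0.0002, and -0.90 centred). Gm19705 went from 15.7, 8.83 and 9.26 FPKM to 3.95, 3.81 and 3.04 FPKM (-1.55, SE 0.24, adjusted p = 0.00025, and -0.71 centred). All 3 control libraries of each lay above all 3 U1 AMO libraries. Gm2762, which overlaps the coding gene model Gm38564, went from 0.80, 0.64 and 0.37 FPKM to 0.04, 0.02 and 0.03 FPKM (-1.77, SE 0.27, adjusted p = 0.00023). Its values under U1, U2 and U1+U2 AMO were all under the pseudocount, so in each of these comparisons it was tested only through the control libraries where it is high.

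Some abundant members fell as well, in part only as deposited. Gm29084 read 48.9, 44.7 and 48.4 FPKM on control chromatin and 18.3, 21.9 and 21.7 FPKM after U1 AMO (-1.19, SE 0.15, adjusted p = 9.02e-05, and -0.36 centred). Gm43558 went from 308, 345 and 372 FPKM to 143, 193 and 184 FPKM without overlap (-0.99, SE 0.22, adjusted p = 0.00216). With centred libraries its difference was -0.15 and did not pass. Gm44206 went from 191, 176 and 184 FPKM to 97.1, 119 and 114 FPKM (-0.74, SE 0.18, adjusted p = 0.00361), and centring turned the value to 0.09. Gm28625 also changed sign, to 0.02.

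Gm38150, the member with the largest chromatin minus whole cell difference in the polyA data, also had one of the largest falls. Its chromatin level was 4.23, 3.54 and 6.88 FPKM in the control and 0.35, 1.01 and 2.04 FPKM after U1 AMO (-2.10, SE 0.49, adjusted p = 0.00322). Centred, the value was -1.26 and did not pass. In whole cells it went from 2.02 and 1.65 FPKM to 0.17, 0.35 and 0.28 FPKM, with no overlap (-2.14, SE 0.29, adjusted p = 0.000714). Gm43079 fell on chromatin to 0.78, 0.34 and 0.11 FPKM (-1.79, SE 0.59, adjusted p = 0.0195), but not past the threshold without control library 1 (adjusted p = 0.0606), without U1 AMO library 3 (adjusted p = 0.0805) or with centred libraries (-0.96, adjusted p = 0.30).

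The single rise on chromatin was that of Gm49493, from 1.96, 2.33 and 2.57 FPKM to 2.89, 3.31 and 3.61 FPKM after U1 AMO (0.48, SE 0.17, adjusted p = 0.0267). It did not pass without control library 1 (adjusted p = 0.104), U1 AMO library 2 (0.0632) or U1 AMO library 3 (0.0907).

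In cytoplasm few members passed the test after U1 AMO. Gm29084 was the only member of 82 that fell, and none rose. Among all 1195 lncRNAs 42 (3.51%) fell and 49 (4.10%) rose. Gm29084 read 88.8, 81.5 and 99.6 FPKM in the control and 54.3, 52.0 and 53.3 FPKM after U1 AMO. The groups did not overlap (-0.75, SE 0.18, adjusted p = 0.0236). Its call was lost without control library 1 or 3 or any U1 AMO library (adjusted p 0.0541 to 0.104), and across the left-out libraries the member count was 0 to 3. It was 0 without control cytoplasm library 3 or any U1 AMO library and 3 without control library 2.

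U1 AMO cytoplasm library 1 stood apart for many members. In 20 of 82 (24.4%) it was at least 2 times each of the other U1 AMO cytoplasm libraries, as against 100 of 1277 lncRNAs (7.83%). Gm37065, which overlaps the lymphocyte receptor gene Slamf6 on the opposite strand, read 863, 237 and 295 FPKM there. Its control libraries held 513, 436 and 406 FPKM, inside the range of the U1 AMO libraries. Gm37750 read 2384, 517 and 950 FPKM, and Gm26909 39.6, 12.8 and 13.1 FPKM. In U1+U2 AMO cytoplasm the same holds of library 1 for 12 members (14.6%) and 7.68% of all lncRNAs, and in control cytoplasm for 2 members (2.44%) and 3.52% of all. The part of these libraries in the low number of calls was not tested.

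In nucleoplasm 1 of 69 members rose after U1 AMO and 3 fell, against 120 (12.3%) and 46 (4.73%) of all 973 lncRNAs tested. With the replicate number as a block, which these libraries allow, 1 rose and 6 fell. Centred libraries gave 1 rise and 11 falls, and all lncRNAs split into 123 rises and 138 falls. Gm38037 rose from 0.12, 0.05 and 0.12 FPKM to 0.58, 0.40 and 0.45 FPKM, with no overlap (1.19, SE 0.24, adjusted p = 0.00307). Its control values were all under the pseudocount, so it was tested only through the U1 AMO libraries where it is high, and Gm11696 below only through its control libraries. Gm12690 fell from 3.31, 0.51 and 1.11 FPKM to 0, 0.28 and 0.18 FPKM (-2.16, SE 0.51, adjusted p = 0.00811), and its groups did not overlap either. The falls of Gm12688 (-1.0, adjusted p = 0.0221) and Gm11696 (-0.80, adjusted p = 0.0234) were lost without some single libraries. The count was 1 without U1 AMO library 2, and 2 without control library 1 or 3 or U1 AMO library 1 or 3.

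In whole cells 2 of 79 members rose and 3 fell after U1 AMO, against 79 (6.84%) and 88 (7.62%) of all 1155. With centred libraries 4 rose and 3 fell, and all lncRNAs split into 100 rises and 55 falls. Gm29084 fell from 38.1 and 35.5 FPKM to 24.0, 21.4 and 22.0 FPKM (-0.71, SE 0.11, adjusted p = 0.0018), without overlap. Gm37917 fell to 9.5, 20.0 and 20.7 FPKM (-1.20, adjusted p = 0.0202), but not without control library 1 (adjusted p = 0.167). Gm17251, which overlaps the opposite strand of Rab11b, a gene for a GTPase of recycling endosomes, rose from 0.75 and 1.37 FPKM to 2.76, 2.51 and 1.76 FPKM (1.04, SE 0.26, adjusted p = 0.024). All U1 AMO libraries were above the control libraries, yet without control library 1 the value was 0.67 (adjusted p = 0.203), and it missed the threshold without U1 AMO library 1 (0.0692) or 2 (0.0642). Gm49493 rose by 0.69 (adjusted p = 0.028), which passed without U1 AMO library 3 and in no other left-out set. The count was 2 without control library 1 and 3 without U1 AMO library 1.

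The change on chromatin was also tested against the mean change in the soluble fractions. This difference was below 0 by the test in 9 of 82 members and above 0 in none, with a median of -0.43. Of all 1274 lncRNAs 251 (19.7%) were below and 1 (0.0785%) above, with a median of -0.66. The most negative were Gm43079 (-1.79, adjusted p = 0.0253) and Gm11496 (-1.40, adjusted p = 0.0356). With centred libraries no member was below 0 and 1 was above, and all lncRNAs split into 3 and 11. The count was 1 without control chromatin library 1, 2 without control chromatin library 3, control nucleoplasm library 2 or U1 AMO chromatin library 1, and 3 without U1 AMO chromatin library 2.

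U2 AMO moved few members. On chromatin 2 of 79 rose and 2 fell, against 36 (2.91%) and 66 (5.34%) of all 1236. With the replicate block 2 rose and 6 fell. With centred libraries 2 rose and 1 fell, and all lncRNAs split into 97 rises and 47 falls. Gm43597 rose from 1.19, 1.01 and 1.09 FPKM to 2.12, 3.06 and 2.53 FPKM (1.08, SE 0.21, adjusted p = 0.00721). Gm49493 rose to 3.84, 4.70 and 3.87 FPKM (0.80, SE 0.17, adjusted p = 0.0124), a call lost without control library 1 (adjusted p = 0.0713). In both, every U2 AMO library was above every control library. Gm2762 fell to 0.04, 0.06 and 0.09 FPKM (-1.58, SE 0.27, adjusted p = 0.00404) without overlap. These values were all under the pseudocount of 0.2, so Gm2762 was tested only through the control libraries where it is high. Gm19705 fell by 0.89 (adjusted p = 0.0375) to 4.64, 7.01 and 5.87 FPKM, with centred libraries by 0.66 and not past the threshold. The count was 1 without control library 1 and 2 without control library 3.

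Gm43597 gave opposite values for both oligonucleotides on chromatin. After U1 AMO it read 0.32, 0.41 and 0.32 FPKM, below all control libraries (-1.24, SE 0.21, adjusted p = 0.000438), although the centred value of -0.40 did not pass. After both together it read 0.59, 0.63 and 0.73 FPKM (-0.61, adjusted p = 0.024), which centring turned to 0.19. The difference between oligonucleotides was not tested, and these values share the control libraries.

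In nucleoplasm 4 of 72 members rose after U2 AMO and none fell, against 235 (22.4%) and 0 of all 1051, with medians of 0.32 and 0.46. They were Gm26829 (1.05, adjusted p = 0.0354), Gm43597 (1.05, adjusted p = 0.0152), Gm49493 (1.02, adjusted p = 0.016) and Gm44832 (0.90, adjusted p = 0.0115). With the replicate block 7 rose and none fell. With centred libraries none rose and 1 fell, and all lncRNAs split into 88 rises and 44 falls. The count was 0 without control nucleoplasm library 2, 1 without U2 AMO library 1 or 3, and 2 without control library 3.

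In cytoplasm no member of 82 passed limma's test after U2 AMO, and 8 (0.673%) and 14 (1.18%) of all 1188 lncRNAs rose and fell. An unadjusted p under 0.05 was found for 8 of the 82 members and for 173 of all 1188. With a pseudocount of 1, 2 members fell. In whole cells Gm12690 fell from 2.79 and 2.97 FPKM to 0.56, 1.00 and 0.47 FPKM without overlap (-1.86, SE 0.40, adjusted p = 0.029), as did 16 (1.35%) of all 1187, while 28 (2.36%) rose. Without control library 1 or 2 its adjusted p was 0.147 or 0.174, and without U2 AMO library 1 or 3 it was 0.0805 or 0.0738.

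U1 and U2 AMO together gave values near those of U1 AMO. On chromatin 30 of 77 members fell and 1 rose, with a median of -0.54, against 617 (50.1%) and 48 (3.90%) of all 1232, with a median of -0.75. With centred libraries 3 members fell and 9 rose, and all lncRNAs split into 103 falls and 187 rises. Gm12100 fell to 0.51, 0.46 and 0.40 FPKM (-1.83, SE 0.25, adjusted p = 0.00019, and -1.03 centred). Gm2762 fell to 0.07, 0 and 0.03 FPKM (-1.76, SE 0.26, adjusted p = 0.000297, and -0.96 centred). The treated values of Gm2762 and Gm16201 were all under the pseudocount of 0.2, so their falls were tested only through the control libraries. The rise was that of Gm49493, to 3.89, 4.02 and 3.95 FPKM (0.75, SE 0.17, adjusted p = 0.00306, and 1.55 centred). In all 3 genes the treated and control libraries did not overlap.

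**Figure D3:**
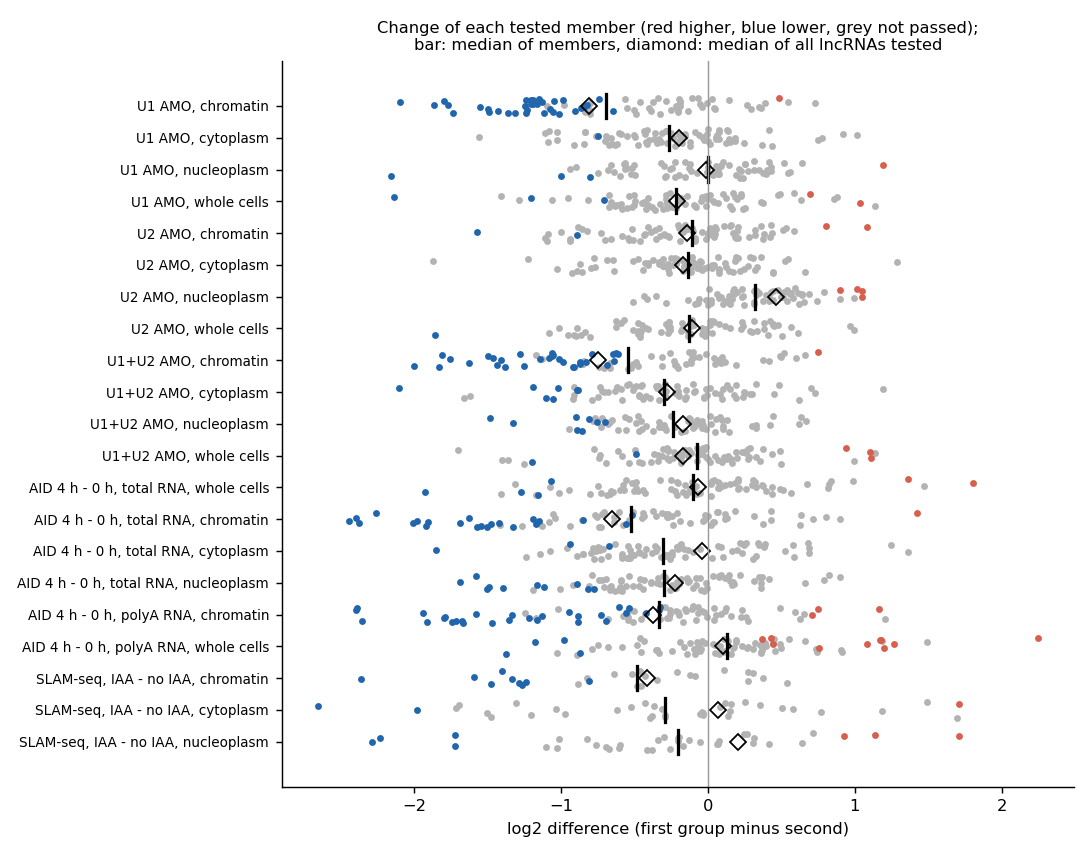
The log2 difference of each tested member in 21 comparisons of treated with control libraries, in red where it rose, blue where it fell and grey where it did not pass. Bars mark the median of the members and diamonds the median of all lncRNAs tested. The AID total comparisons of chromatin, cytoplasm and nucleoplasm use the 0 h libraries that chose the members, and the falls gather in the chromatin comparisons of U1 AMO, U1+U2 AMO and IAA.

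In cytoplasm 7 of 82 members fell with both oligonucleotides and none rose, against 69 (5.78%) and 34 (2.85%) of all 1193. Gm12688 went from 13.8, 13.1 and 16.7 FPKM to 5.91, 6.93 and 7.13 FPKM (-1.1, SE 0.20, adjusted p = 0.00745) without overlap, and stayed past the threshold without any single library. Gm38150 went from 6.15, 5.42 and 8.79 FPKM to 2.66, 1.09 and 0.89 FPKM (-2.11, SE 0.43, adjusted p = 0.0112), a call lost without control library 3 (adjusted p = 0.0527). Gm29084 was lost in the same way (-0.89, adjusted p = 0.0111, and 0.0527 without that library). The other falls were those of Gm43520, Gm12100, Gm37917 and Gm29562, from -1.19 to -0.89. The member count was 1 without control library 3 and 4 without control library 1 or any treated library.

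In nucleoplasm 8 of 68 members fell and none rose, against 88 (9.40%) and 91 (9.72%) of all 936. Among the 8, Gm11696 was tested only through the control libraries, since its treated values were all under the pseudocount. The largest falls were those of Gm43568 (-1.49, adjusted p = 0.0476) and Gm27234 (-1.33, adjusted p = 0.0202), and both were lost without any treated library. The count fell to 1 without control library 1 or 3 or any treated library, and to 3 with no filter on low values. In whole cells 3 of 80 rose and 2 fell, against 79 (6.77%) and 66 (5.66%) of all 1167. Gm17251 (1.11), Gm38037 (1.1) and Gm49493 (0.94) rose, and Gm12100 (-1.20) and Gm29084 (-0.49) fell, with adjusted p from 0.00751 to 0.0395. None of these 5 passed in every left-out set, and the count was 2 without control library 2 or treated library 3. With centred libraries 4 members rose and 2 fell, and all lncRNAs split into 85 rises and 46 falls.

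Over all 12 AMO comparisons, which share control libraries, 40 of the 82 members passed at least once, against 70.2% of the 1276 lncRNAs tested in any. The 42 that never passed included the strongly cytoplasmic Gm43444, Gm37750, Gm26909, Gm13580 and Gm7292. Of all 82 members 34 had falls alone, against 581 (45.5%) of the 1276 lncRNAs. Gm38037, Gm17251 and Gm49493 had rises alone, against 183 (14.3%) of the 1276. Gm44832, Gm26829 and Gm43597 had both.

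SNRNP70 depletion was next compared in whole cells, whose libraries the rule did not use. After 4 h of IAA 2 of 82 members rose and 4 fell, against 67 (5.31%) and 82 (6.50%) of all 1261. Gm44832 went from 6.56, 6.56 and 6.78 FPKM to 2.91, 3.03 and 3.39 FPKM (-1.07, SE 0.13, adjusted p = 0.00435). Gm38037 went from 0.37, 0.30 and 0.27 FPKM to 1.41, 1.57 and 1.07 FPKM (1.8, SE 0.27, adjusted p = 0.00812). In neither gene did the groups overlap, and both calls were kept without any single library.

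The other 4 calls depended on single libraries or were not examined that way. Gm9888, which overlaps the transmembrane protein gene Cmtm7, rose from 0.94, 1.29 and 0.71 FPKM to 1.83, 2.49 and 3.86 FPKM (1.36, SE 0.33, adjusted p = 0.0363). It missed the threshold without 0 h library 1 or 3 or 4 h library 2 or 3 (adjusted p 0.0824 to 0.0943). Gm13421, which lies 3891 bp from Wdr5, a gene for a subunit of histone H3 methyltransferase complexes, fell from 11.8, 11.1 and 13.9 FPKM to 7.41, 3.76 and 4.42 FPKM (-1.27, SE 0.25, adjusted p = 0.0202). The same left-out libraries cost it the call (adjusted p 0.057 to 0.0637). Gm14022 fell from 1.40, 1.32 and 1.57 FPKM to 0.33, 0.12 and 0.58 FPKM (-1.93, SE 0.42, adjusted p = 0.0278), a call lost without any 0 h library or 4 h library 1 or 2. In all 3 the groups did not overlap. Gm10522 fell by 1.16 (adjusted p = 0.0202). The count was 2 without 0 h library 1 or 3 or 4 h library 2, and 10 with a pseudocount of 1.

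The fractions of the total RNA table share the 0 h libraries with the rule, so their counts are given as a description from which nothing is read. On chromatin 22 of 80 members fell and 1 rose, against 46.7% and 3.17% of all lncRNAs, with medians of -0.53 and -0.65. With centred libraries 7 fell and 9 rose, and Gm13421 and Gm37917 changed sign, to 0.19 and 0.23. In cytoplasm 3 of 82 fell and none rose, against 1.01% and 2.66% of all, and leaving out single libraries gave 0 to 2. In nucleoplasm 10 of 82 fell and none rose, against 10.8% and 5.21%. Centred, 8 fell and 6 rose there, and the count was 5 without 0 h library 2 and 6 without 0 h library 1.

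The values of the polyA libraries were not used by the rule. In them 35.4% of the members tested fell on chromatin after 4 h of IAA, and 12.3% rose in whole cells. These shares were near those of all lncRNAs tested, 36.8% and 13.0%. On chromatin 29 of 82 members fell and 3 rose after 4 h of IAA, with a median of -0.33, against 448 (36.8%) and 109 (8.96%) of all 1217, with a median of -0.37. With centred libraries 14 fell and 10 rose, and all lncRNAs split into 201 falls and 232 rises. In whole cells 10 of 81 rose and 4 fell, with a median of 0.13, against 147 (13.0%) and 80 (7.05%) of all 1135, with a median of 0.10. Centred, 6 rose and 6 fell, and all split into 107 and 91. The whole-cell count was 9 without 0 h library 3.

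Gm44832 fell in both polyA fractions. On chromatin it went from 9.36, 8.15 and 9.62 FPKM to 1.79, 1.65 and 1.49 FPKM (-2.39, SE 0.12, adjusted p = 1.72e-05). In whole cells it went from 3.39, 3.80 and 3.59 FPKM to 1.77, 2.18 and 1.43 FPKM (-0.98, SE 0.19, adjusted p = 0.00678). Gm12688 moved the same way, from 19.1, 19.9 and 19.7 FPKM to 6.11, 5.90 and 6.14 FPKM on chromatin (-1.68, SE 0.07, adjusted p = 9.21e-06) and from 9.19, 8.91 and 7.81 FPKM to 5.72, 4.40 and 4.01 FPKM in whole cells (-0.87, SE 0.16, adjusted p = 0.00494). None of these groups overlapped, and all 4 calls were kept with centred libraries and without any single library.

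Gm38150, Gm27234 and Gm11696 also fell on polyA chromatin. Gm38150 went from 19.2, 16.4 and 14.2 FPKM to 3.31, 2.13 and 4.00 FPKM (-2.40, SE 0.22, adjusted p = 0.000128, and -1.91 centred). Gm27234 went from 4.75, 5.4 and 4.88 FPKM to 1.18, 1.90 and 0.82 FPKM (-1.94, SE 0.26, adjusted p = 0.000833, and -1.46 centred). Neither had overlapping groups. Gm11696 fell there by 1.91 (SE 0.43, adjusted p = 0.00786), and in whole cells from 0.78, 0.76 and 0.49 FPKM to 0.23, 0.15 and 0.21 FPKM (-1.38, SE 0.30, adjusted p = 0.0121). Gm29084 went from 98.4, 98.4 and 97.3 FPKM to 67.8, 67.0 and 65.3 FPKM (-0.56, SE 0.05, adjusted p = 7.44e-05), which centring reduced to -0.07.

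The largest polyA rise in whole cells was that of Gm9888, from 0.41, 0.53 and 0.27 FPKM to 1.94, 1.97 and 2.93 FPKM (2.25, SE 0.29, adjusted p = 0.000901). Gm43597 rose from 0.79, 0.79 and 0.91 FPKM to 2.06, 1.58 and 2.47 FPKM (1.18, SE 0.23, adjusted p = 0.00678). Gm17251 rose from 2.09, 2.83 and 2.59 FPKM to 4.13, 4.28 and 4.39 FPKM (0.76, SE 0.16, adjusted p = 0.0114). In all 3 every 4 h library was above every 0 h library, and the calls were kept with centred libraries and without any single library. Gm43597 also rose on polyA chromatin, from 1.40, 1.45 and 2.07 FPKM to 3.20, 3.06 and 2.20 FPKM (0.75, adjusted p = 0.0208), a call lost in 4 of the 6 left-out sets.

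Gm7292 rose in whole cells and fell on chromatin, where the fall depended on scaling and on single libraries. Whole cells went from 26.9, 26.3 and 27.4 FPKM to 36.9, 33.4 and 38.2 FPKM without overlap (0.43, SE 0.08, adjusted p = 0.00692). On chromatin it went from 9.15, 9.08 and 11.1 FPKM to 8.44, 7.53 and 7.29 FPKM (-0.33, SE 0.11, adjusted p = 0.0428), which turned to 0.16 with centred libraries and was lost in 5 left-out sets (adjusted p 0.0567 to 0.109).

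**Figure D4:**
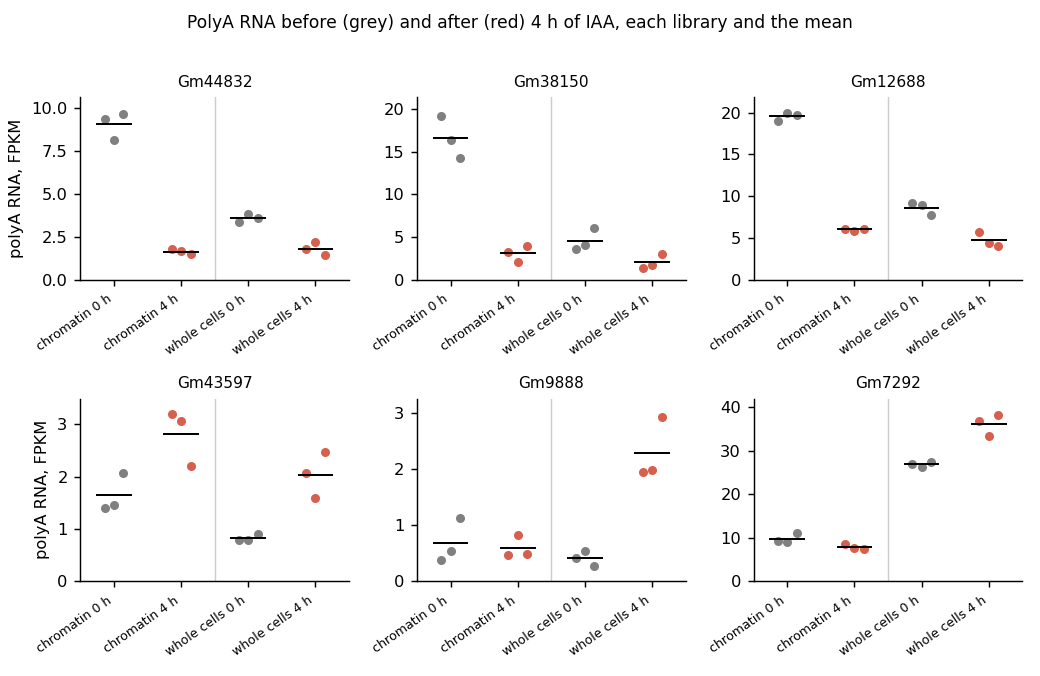
PolyA RNA of 6 members on chromatin and in whole cells, in FPKM per library, with 0 h in grey and 4 h of IAA in red. Gm44832 and Gm12688 are lower at 4 h both on chromatin and in whole cells. Gm9888 is higher in whole cells, where its 4 h libraries lie between 1.94 and 2.93 FPKM.

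SLAM-seq marks RNA made during the 4sU pulse, since incorporated 4sU is read as C in place of T. The values are reads with such changes, divided by a spike-in factor, and are called labelled reads here, though they are not whole reads. Across libraries 1 read stood for 0.697 to 1.53 on chromatin, 4.39 to 7.58 in cytoplasm and 1.64 to 3.39 in nucleoplasm. They are not divided by gene length, so genes were not compared with one another. The table listed 37 of the 82 members. Its chromatin libraries were made from total RNA and its cytoplasm and nucleoplasm libraries from polyA RNA, so the latter pair was compared. Recovered read totals over its lncRNAs were 99102 to 227237 in chromatin libraries, 24927 to 46990 in cytoplasm and 39498 to 89879 in nucleoplasm.

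Without IAA, labelled polyA RNA of the members was already lower in nucleoplasm than in cytoplasm. Of 37 members 14 were lower and 1 higher, with a median of -0.85, against 87 (18.3%) and 79 (16.6%) of all 475 lncRNAs, with a median of -0.08. With centred libraries 12 members were lower and 2 higher, and all lncRNAs split into 76 and 114. The edgeR test on the recovered whole reads, chosen after the data were seen, found 11 lower and none higher, and called 142 of all 475. Gm45184 had 2419, 4819 and 2319 labelled reads in cytoplasm and 403, 586 and 387 in nucleoplasm (-2.71, SE 0.29, adjusted p = 8.08e-08). Gm7292 had 719, 893 and 505 in cytoplasm and 110, 215 and 99.4 in nucleoplasm (-2.30, SE 0.35, adjusted p = 1.33e-05). Gm13580 had 305, 435 and 245 against 99.5, 145 and 61.3 (-1.65, SE 0.40, adjusted p = 0.00253). The groups of these 3 did not overlap. The exception was Gm10501, with 17.96, 0 and 5.32 labelled reads in cytoplasm and 31.4, 50.3 and 38.05 in nucleoplasm (1.75, SE 0.54, adjusted p = 0.0122). At 5.99, 5.65 and 5.32 per read, its cytoplasm values rest on very few reads. Its call was lost without cytoplasm library 2 (adjusted p = 0.0579) and by edgeR (adjusted p = 0.0621).

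IAA lowered labelled RNA on chromatin in 9 of 27 members tested and raised none, with a median of -0.48, against 142 (33.6%) and 24 (5.67%) of all 423, with a median of -0.41. With IAA, all chromatin values of Gm13580, Gm27234 and Gm10522 were under the pseudocount of 8. Their falls were tested only through the libraries without IAA. With centred libraries 3 members fell and 3 rose, and all lncRNAs split into 65 falls and 96 rises. The edgeR test gave 8 falls and called 157 of all 423. The count was 5 without library 2 or 3 of the group without IAA. In cytoplasm 2 of 37 fell and 1 rose, against 17 (4.02%) and 28 (6.62%) of all 423. In nucleoplasm 4 fell and 3 rose, against 47 (9.59%) and 87 (17.8%) of all 490, with medians of -0.21 and 0.21. With centred libraries 5 members fell and 3 rose in nucleoplasm, and all lncRNAs split into 67 and 76. The nucleoplasm count was 4 without library 3 of the group without IAA.

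Gm19705 and Gm43568 carried wide changes in labelled RNA, the former down and the latter up, and their promoters are shown for that reason. Gm19705, on the plus strand, lies 53005 bp from Zfp281, a zinc finger transcription factor gene active in stem cells, and RefSeq gave it 2 starts, of which the second is printed (chr1:136683379-136683678). Gm43568, on the minus strand with its promoter at chr3:122629710-122630009, lies 2535 bp from Fnbp1l, a membrane-shaping protein gene, on the same strand. Capitals again mark a CCAAT box on the other strand.
Gm19705: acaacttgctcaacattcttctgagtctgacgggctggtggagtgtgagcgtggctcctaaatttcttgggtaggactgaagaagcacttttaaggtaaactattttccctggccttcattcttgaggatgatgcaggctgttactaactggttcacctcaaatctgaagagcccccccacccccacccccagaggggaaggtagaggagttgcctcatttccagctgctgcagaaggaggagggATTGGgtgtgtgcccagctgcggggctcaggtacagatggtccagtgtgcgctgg
Gm43568: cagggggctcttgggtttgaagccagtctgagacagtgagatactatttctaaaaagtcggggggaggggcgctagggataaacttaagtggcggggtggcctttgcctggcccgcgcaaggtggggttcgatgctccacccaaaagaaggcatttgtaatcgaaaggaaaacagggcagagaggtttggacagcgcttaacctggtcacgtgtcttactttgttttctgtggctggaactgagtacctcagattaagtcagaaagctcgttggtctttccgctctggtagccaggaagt
The printed Gm19705 window was chosen because it holds a match, at -5 from its start, in 53.7% G and C. The window of the first start (chr1:136683146-136683445, 45.3% G and C) held none of the 4 motifs. The Gm43568 window, with 52.0% G and C, held none of the 4 motifs.

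Labelled Gm19705 fell in all 3 fractions. On chromatin it went from 119, 103 and 82.2 labelled reads to 11.2, 18.9 and 10.2 (-2.36, SE 0.28, adjusted p = 3.06e-05). In cytoplasm it went from 293, 616 and 426 to 53.0, 202 and 95.5 (-1.98, SE 0.48, adjusted p = 0.000969), and in nucleoplasm from 238, 282 and 169 to 51.1, 36.1 and 33.9 (-2.28, SE 0.36, adjusted p = 1.1e-08). No groups overlapped, and all 3 calls were kept with centred libraries and without any single library. In unlabelled polyA RNA of whole cells Gm19705 read 14, 12.5 and 14.9 FPKM at 0 h and 15.1, 12.2 and 10.0 FPKM at 4 h, and did not pass. On polyA chromatin it went from 17.1, 18.1 and 12.5 FPKM to 9.87, 7.81 and 7.80 FPKM (-0.89, SE 0.16, adjusted p = 0.00307, and -0.40 centred, not passing).

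Gm35082, 12613 bp from Plekhb1, fell in labelled cytoplasm from 180, 226 and 112 to 22.7, 39.5 and 6.37 (-2.66, SE 0.71, adjusted p = 0.00417). At 7.58, 4.39 and 6.37 per read, its cytoplasm values with IAA rest on few reads. In nucleoplasm Gm35082 fell from 26.2, 64.4 and 46.5 to 3.19, 6.57 and 0 (-2.23, SE 0.58, adjusted p = 0.000887). The groups did not overlap in either fraction, and its nucleoplasm values with IAA were all under the pseudocount of 8, so it was tested there only through the libraries without IAA. Its polyA RNA in whole cells went the other way, from 0.97, 2.12 and 0.80 FPKM to 3.80, 3.32 and 2.13 FPKM (1.27, SE 0.35, adjusted p = 0.0352). That rise missed the threshold with centred libraries (adjusted p = 0.0541) and without 0 h library 1 or 3 or 4 h library 1 or 2 (adjusted p 0.0856 to 0.111). The labelling and the IAA times of these experiments differ.

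Labelled Gm43568 rose in nucleoplasm from 15.7, 20.1 and 46.5 to 109, 65.7 and 139 (1.71, SE 0.45, adjusted p = 0.000992), without overlap. In cytoplasm it went from 144, 84.8 and 16.0 to 189, 325 and 172 (1.71, SE 0.57, adjusted p = 0.0326). That call was lost without cytoplasm library 3 of the group without IAA (0.94, adjusted p = 0.294), without any IAA library, with a pseudocount of 1 (adjusted p = 0.0759) and by edgeR (1.5, adjusted p = 0.0856). Gm43558 rose in nucleoplasm from 1880, 3036 and 2414 to 3891, 4401 and 5512 (0.92, SE 0.22, adjusted p = 0.000202), with all IAA libraries above all others.

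Gm44832 and Gm27234, which fell in other chromatin data, fell here as well. Gm44832 went from 32.1, 32.8 and 30.8 to 5.18, 13.9 and 3.90 labelled reads on chromatin (-1.40, SE 0.32, adjusted p = 0.00342), though the centred value of -0.84 did not pass. In nucleoplasm it went from 34.0, 70.4 and 48.6 to 19.2, 4.93 and 6.78 (-1.72, SE 0.55, adjusted p = 0.009), a call lost without nucleoplasm library 2 of the group without IAA (adjusted p = 0.0862). Gm27234 went from 53.5, 19.5 and 26.4 to 6.91, 2.53 and 5.46 on chromatin (-1.60, SE 0.35, adjusted p = 0.00276, and -1.03 centred). Gm13580, a cytoplasmic member with no AMO call, went from 22.9, 17.4 and 29.4 to 6.91, 2.53 and 6.25 (-1.24, SE 0.31, adjusted p = 0.00576), and its centred value of -0.67 did not pass. None of these groups overlapped. For Gm27234 and Gm13580 all IAA values were under the pseudocount, so they were tested only through the libraries without IAA.

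**Figure D5:**
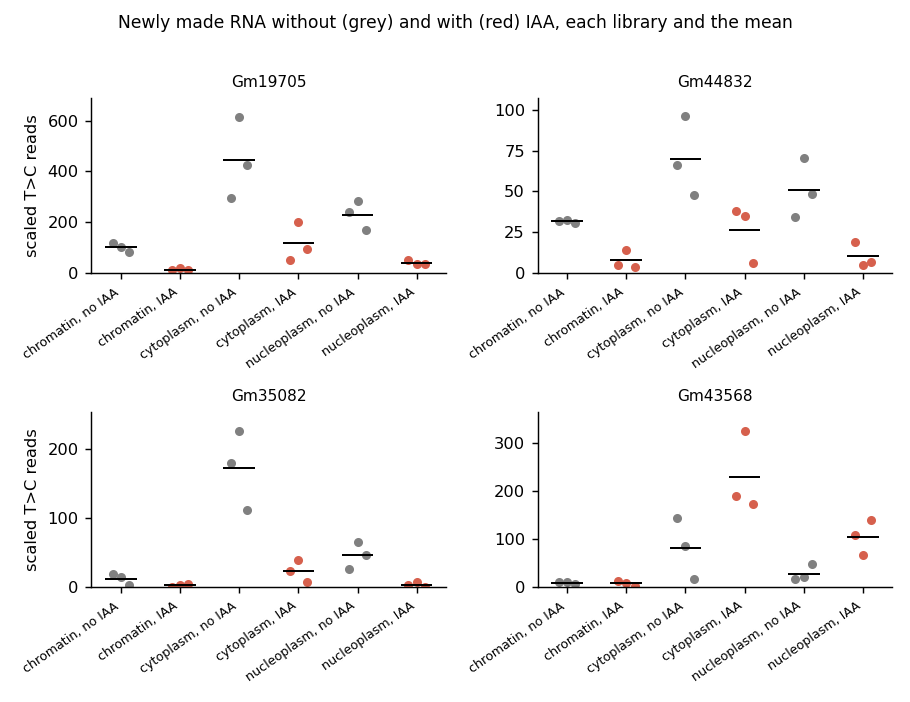
Labelled reads of 4 members per library on chromatin, in cytoplasm and in nucleoplasm, without IAA in grey and with IAA in red. Gm19705 is lower with IAA in all 3 fractions, and Gm43568 is higher in nucleoplasm, where its IAA libraries lie between 65.7 and 139 labelled reads.

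The 14 members that were higher in nucleoplasm than in cytoplasm at 0 h were Gm17251, Gm29562, Gm14230, Gm43520, Gm26616, Gm37917, Gm43108, Gm13068, Gm49493, Gm29084, Gm12932, Gm11696, Gm43597 and Gm10501. They were picked on measured values, so what follows is a description. At 4 h 11 of the 14 were still above 0. In control AMO cells all 14 were lower in nucleoplasm than in cytoplasm, with a median of -1.08 against -2.58 for the other 68. In polyA RNA at 0 h 6 of the 14 were higher on chromatin than in whole cells and 1 lower, with a median of 0.34. The other 68 split into 15 and 16 with a median of -0.28. Of all lncRNAs tested there, 65.4% were higher and 7.81% lower, with a median of 1.15. After U1 AMO 8 of the 14 fell on chromatin and 1 rose, with a median of -0.97. Of the other 64 tested 26 fell and none rose, with a median of -0.53. Of all lncRNAs tested 52.8% fell and 5.27% rose, with a median of -0.81.

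Across the IAA comparisons outside the 0 h libraries of the rule, 44 of 82 members passed at least once, against 63.2% of the 946 lncRNAs listed in both AID tables and tested. Of all 82 members 30 had falls alone, against 400 (42.3%) of the 946, and 11 had rises alone, against 172 (18.2%) of the 946. Gm7292, Gm35082 and Gm4779 had both. Over these IAA and all 12 AMO comparisons together, which leave out the AID total fractions, 25 members never passed. Among these were Gm43444, Gm37750, Gm26909, Gm37065 and Gm45184, each of which was cytoplasmic in control AMO cells. A value that missed the threshold here is not shown to be without change.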

How the data were processed

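Of the 112 samples of the series, 101 libraries were used: 47 of the AMO table, 24 of the AID total table, 12 of the AID polyA table and 18 of SLAM-seq. TT-seq, ChIRP and ChIP libraries were not analysed here. The authors deposited FPKM values per lncRNA. Per the labels' protocols, fractions were scaled to spike-in RNA (lacZ and mCherry for total RNA, ERCC for polyA and SLAM-seq), and no such scaling is named for whole cells. Levels were tested only within a table. Per the submitters' processing notes the build mm10 and the tools CASAVA, TopHat and Cufflinks were used. The depth behind FPKM values is unknown. SLAM-seq values are, per the file headers, a signal: reads with T-to-C changes divided by the authors' spike-in factor. Whole reads were recovered from it for 100% of values, within 0.1 read.

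Rows sharing an identifier were left out (3, 3, 2 and 0), which left 1279, 1279, 1246 and 492 lncRNAs, of which 1264, 1264, 1231 and 485 matched a symbol. Of the AMO columns 1, whose name gives no fraction, was not used. Values were tested as log2(value + pseudocount), the pseudocount being 0.2 (AMO), 0.1 (AID total and polyA) or 8 (SLAM-seq), with limma 3.58.1 in R 4.3.3 (eBayes with trend). A lncRNA was tested where at least 3 libraries of the comparison reached the pseudocount. P-values were adjusted by Benjamini-Hochberg over all lncRNAs tested, and all tests were two-sided. The scripts were tested on simulated data. Recovered reads were also tested with edgeR 4.0.16. Groups came from the sample labels. Nothing says that replicates were separate cultures, so p-values measure the spread between these libraries, which may be technical. No library pair of a group held more than 6.50% identical values.

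Members, gene lists and tests were chosen with earlier results of these data known. Members named are the 10 most abundant in control AMO whole cells, the 6 lowest in the 0 h contrast, the 4 nearest the threshold on each side, the 4 highest on chromatin after control AMO, and up to 2 largest rises and falls per comparison whose libraries do not overlap. Others are named where a small count is listed, and they were picked after their values were seen. Same-numbered AMO libraries deviated together on chromatin (correlations 0.281 to 0.532) and in nucleoplasm (0.154 to 0.52), where the replicate number was therefore also fitted as a block. Alternatives were a pseudocount of 1, no filter on low values, libraries centred on their medians, the block, and leaving out each library. RefSeq features and promoters (GRCm38.p6) were matched by symbol. Fewer than 80% of members had one, so a comparison of gene properties is void.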

Additional observations from a re-analysis of the deposited data

Results flagged for a closer look

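For 9 of 82 members the change after U1 AMO differed between chromatin and the soluble fractions by the interaction test of limma. All 9 were below 0. Of all 1274 lncRNAs tested, 251 (19.7%) were below 0 by that test and 1 above. The share of the members was smaller, which was not tested. The difference, chromatin change minus mean soluble change on the log2 scale, was -1.79 for Gm43079, -1.40 for Gm11496, -1.33 for Gm19705 and -1.26 for Gm26829. It was -0.98 for Gm12100, -0.97 for Gm17322 and -0.92 for Gm13068. For Gm43558 it was -0.78 and for Gm29084 -0.56, and with centred libraries these turned to 0.06 and 0.28. Of the 7 examined by leaving out each of 18 libraries in turn, only Gm26829 kept its call in all 18. With centred libraries none of the 7 passed, and Gm26829 gave -0.42.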

How the results depend on the processing

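Counts are of members past the threshold. Of 227 results for named members, centring each library on its median kept 148 on their side of the threshold, took 63 below it and changed the sign of 16. It gave 76 members for control AMO place, 13 for U1 AMO on chromatin, 3 in cytoplasm and 12 in nucleoplasm, 1 for U2 AMO in nucleoplasm, 12 for U1+U2 AMO on chromatin, 1 for the U1 AMO shift and 5 for SLAM-seq cytoplasm. Signs changed for polyA chromatin against whole cells in Gm29084 (-0.31), Gm37179 (-0.0674), Gm37917 (-0.77), Gm43558 (-0.29), Gm43597 (-0.0889) and Gm44206 (-0.60). They also changed for U1 AMO chromatin in Gm28625 (0.0154) and Gm44206 (0.0920), and for U1+U2 AMO chromatin in Gm43558 (0.0106), Gm43597 (0.19) and Gm44206 (0.15). The same holds for the U1 AMO shift in Gm29084 (0.28) and Gm43558 (0.0576), for AID chromatin in Gm13421 (0.19) and Gm37917 (0.23), and for polyA chromatin after IAA in Gm7292 (0.16). A pseudocount of 1, which also raises the filter, gave 3 for U1 AMO cytoplasm, 2 for U1 AMO nucleoplasm, 2 for U2 AMO cytoplasm, and 10, 15 and 5 for AID whole cells, chromatin and cytoplasm. No filter gave 3 for U1+U2 AMO nucleoplasm. With the replicate block the counts were 7 for U1 AMO nucleoplasm, 8 for U2 AMO chromatin, 7 for U2 AMO nucleoplasm and 0 for U2 AMO whole cells, where Gm12690 gave -1.95 (adjusted p = 0.0514). The block took 6 named results below the threshold and left 221 in place. Outside AMO chromatin and nucleoplasm, the joint deviation of same-numbered libraries varied between comparisons. Correlations were 0.272, 0.295 and 0.0958 for U1 AMO cytoplasm and 0.277, 0.0952 and 0.491 for AID total chromatin after IAA. For polyA chromatin after IAA they were -0.0029, 0.0080 and 0.0353. The edgeR test kept 18 of 20 SLAM-seq results. The cause of these shifts was not tested.

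Leaving out each library in turn kept 1211 values for named members on their side of the threshold and took 338 below it. Member counts ran from 34 to 41 for control AMO place, 52 to 63 for AID 4 h place and 32 to 37 for polyA chromatin against whole cells. For U1 AMO they ran from 22 to 31 (chromatin), 0 to 3 (cytoplasm), 1 to 4 (nucleoplasm), 2 to 7 (whole cells) and 1 to 11 (shift). For U2 AMO they ran from 1 to 4, 0 to 1, 0 to 6 and 0 to 1, and for U1+U2 AMO from 21 to 30, 1 to 6, 1 to 6 and 2 to 4, in the same order of fractions. For AID total they ran from 16 to 28, 0 to 2, 5 to 8 and 2 to 7. PolyA gave 24 to 28 on chromatin and 9 to 13 in whole cells. SLAM-seq gave 11 to 19 for nucleoplasm against cytoplasm, and 5 to 9, 2 to 4 and 4 to 7 after IAA on chromatin, in cytoplasm and in nucleoplasm. FPKM values carry no depth, so members under 1 FPKM are the least certain.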

Other observations

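A pair of members differed widely between the control groups of the cell sets. In whole cells Gm13421 read 11.8, 11.1 and 13.9 FPKM at 0 h in the AID line and 0.65 and 1.03 FPKM in control AMO cells. That log2 difference of 3.74 was the largest of all 1279 lncRNAs. Gm44832 read 6.56, 6.56 and 6.78 FPKM in the AID line against 0.44 and 0.53 FPKM, a difference of 3.53 that ranked 2 of 1279. The median difference was 0.20 over the members and 0.17 over all lncRNAs, whose 5th to 95th percentiles ran from -1.46 to 1.57. At the other end were Gm37214 (-1.71), Gm27167 (-1.69), Gm37913 (-1.66) and Gm26909 (-1.50). The sets differ in line and in nucleofection and were normalised separately, so no test was made.

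The members for which library 1 of the cytoplasm was at least 2 times both other libraries in U1 AMO and in U1+U2 AMO were Gm26909, Gm37612, Gm13075, Gm37913, Gm37065, Gm45184, Gm37214, Gm17494, Gm12976 and Gm26720. In U2 AMO cytoplasm the same was seen for 5 members (6.10%) and 6.12% of all lncRNAs. Gm37214 read 419, 128 and 144 FPKM in U1 AMO cytoplasm and 280, 189 and 165 FPKM in control cytoplasm. Gm45184 read 15.2, 4.54 and 5.71 FPKM against 8.33, 5.4 and 6.62 FPKM.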
